A study of Mus musculus with 8 samples.

Results

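The cytosolic ribosomal protein genes encode the proteins of the large (Rpl) and small (Rps) ribosomal subunits. They were taken from RNA sequencing counts of mouse embryonic cortex by their symbols, as rows named Rpl or Rps with a number, together with Rpsa, Rplp0, Rplp1 and Rplp2, without the Rps6k kinases. Of 80 rows so named, 75 had counts summing to 80 or more over the 8 libraries, 44 for the large and 31 for the small subunit, out of 21165 rows in the whole table. The samples were cortices microdissected at E18.5 from 4 embryos of a constitutive Nuak1 KO line and from 4 WT embryos, on a C57Bl/6JRj background. The KO is present in every cell of the embryo, so the cortex is a mixture in which all cell types lack the kinase. NUAK1 is a kinase related to AMPK, and the comparison asks which transcripts differ in the cortex without it. The labels list 2 male and 2 female KO embryos and 1 male and 3 female WT embryos from 3 litters, while the count columns carry only the genotype and a running number. Sex and litter of a given library were therefore not used, and libraries are named KO R1 to R4 and WT R1 to R4.

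A ribosome holds 1 copy of nearly every ribosomal protein, and its genes are transcribed at high and similar levels in growing tissue. Most of these mRNAs start with a C followed by a run of pyrimidines, the 5′ terminal oligopyrimidine (TOP) motif, through which mTORC1 and the LARP1 protein control how well they are translated. Surplus ribosomal proteins are degraded, and free RPL5 and RPL11 bound to 5S rRNA hold back MDM2, which links ribosome assembly to p53.

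In these data 74 of the 75 ribosomal protein genes had a higher mean in KO than in WT cortices, against 45.6% of all 12699 genes tested, and the differences were small. The median log2 fold change was 0.16, against -0.01 over all genes, and single genes ranged from -0.06 to 0.31. No member passed an adjusted p of 0.05, and the smallest adjusted p was 0.4399 (edgeR quasi-likelihood test), while 0.0709% of all genes passed. At an unadjusted p of 0.05, 39 members were higher in KO and 0 were lower, where the background was 4.51% of all genes higher and 3.18% lower. The same count by DESeq2 was 42 higher and 0 lower (4.5% and 2.7% of all genes), with 0 members past an adjusted p of 0.05 (0.512% of all genes) and a smallest adjusted p of 0.08685.

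**Figure D1:**
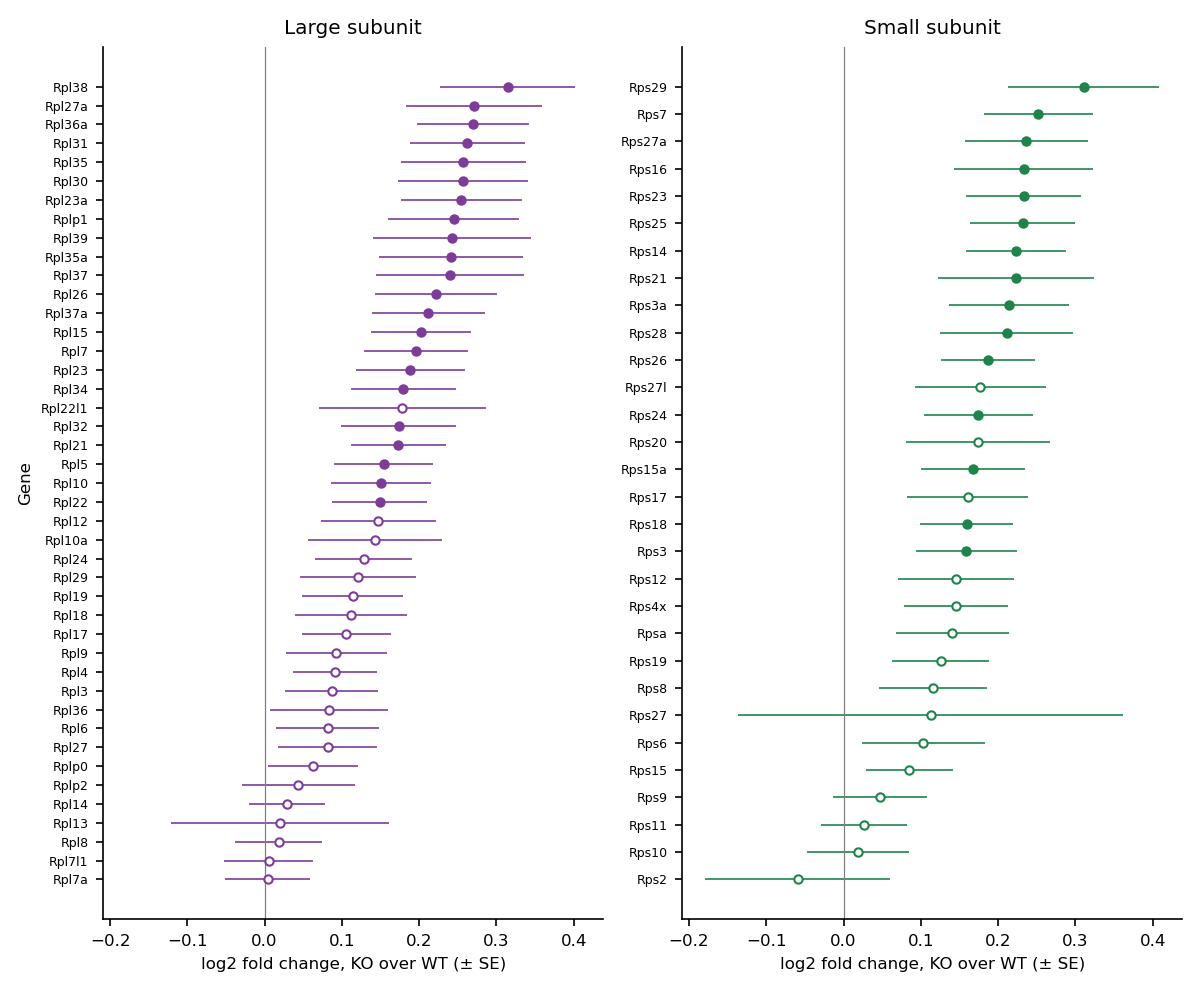
Log2 fold change of KO over WT (x axis, bars are ± SE, n = 4 KO and 4 WT) for the large and small subunit genes (y axis), 2 of which are not drawn. Filled points have an unadjusted p under 0.05 in edgeR, and only Rps2 lies to the left of 0.

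The size of the difference varied with the libraries. The 75 genes moved together from library to library, and each library was summarised by the median deviation of its log2 normalized counts from the mean of all 8 libraries. The medians were 0.21 in KO R1, -0.03 in KO R2, 0.14 in KO R3 and -0.0066 in KO R4. In WT they were -0.07 in R1, -0.03 in R2, -0.21 in R3 and -0.014 in R4. KO R1 and KO R3 were thus high, WT R3 was low, KO R2 lay among the other WT libraries, and KO R4 lay just above the highest of them. KO R1 held the highest value for 65 members and WT R3 the lowest for 70.

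With KO R1 and WT R3 both left out, a choice made after seeing that they were the highest KO and the lowest WT library and one that must shrink the difference, 67 members stayed higher in KO, the median log2 fold change was 0.09, and 7 members passed an unadjusted p of 0.05, against 2.26% of all genes higher. Among these 7 genes were Rpl36a, Rpl38, Rps7, Rpl31, Rps14 and Rps25. Leaving out KO R1 alone gave 21 members at that p (3.17% of all genes higher), KO R3 alone 20 (3.22%) and WT R3 alone 19 (2.98%).

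**Figure D2:**
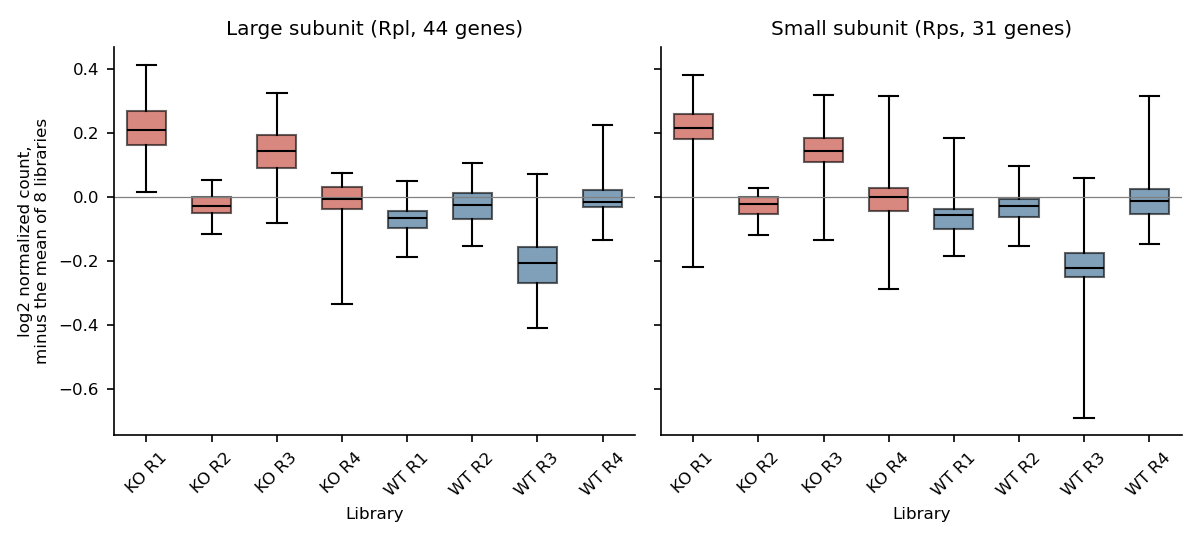
Log2 normalized count of each gene minus its mean over the 8 libraries (y axis), by library (x axis), for the 44 large and 31 small subunit genes. Boxes span the quartiles with the median as a line, and whiskers reach the lowest and highest gene. Medians of KO R1 and KO R3 lie above the others and that of WT R3 below them in both subunits.

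KO R1 also stood apart in its cell type markers. The summed level of 9 meningeal fibroblast markers was 10681 normalized counts in KO R1, against 473 to 661 in the other KO and 367 to 514 in the WT libraries. All 6 tested markers of that list, led by collagen genes, had an unadjusted p under 0.05 by edgeR and 1 by DESeq2, with a median log2 fold change of 2.93 that was 0.37 without KO R1. The summed level of 10 endothelial markers was 6023 in KO R1 and 3822 to 4595 in the other KO libraries, against 3640 to 4283 in WT. The 8 microglia markers summed to 1076 in KO R1, against 527 to 736 in the other KO and 523 to 747 in the WT libraries. WT R3 had the highest summed level of 11 progenitor markers, at 36923, where the other WT libraries had 27176 to 31349 and the KO libraries 26563 to 31956. Of these 11 markers 1 had a positive log2 fold change, against 45.6% of all genes. Their median log2 fold change was -0.11 both with and without KO R1. In bulk tissue a shift in cell types and a shift in RNA per cell cannot be told apart. Without KO R1, 71 members were higher in KO with a median log2 fold change of 0.13, and without WT R3 these were 69 and 0.13. No marker of these 4 lists was at 0 in all libraries.

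As a share of all counts, the 75 genes took 5.24% in KO R1, 4.36% in KO R2, 4.86% in KO R3 and 4.49% in KO R4. In WT the shares were 4.30% in R1, 4.41% in R2, 3.92% in R3 and 4.51% in R4. The KO mean was 4.74% ± 0.394 (SD, n = 4). The WT mean was 4.29% ± 0.258 (SD, n = 4), lower by 0.45 percentage points. The genotypes overlapped, since KO R2 and KO R4 lay below WT R4. Without KO R1 the difference was 0.284 points, and without WT R3 it was 0.328.

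The medians of the subunits lay close together. Of 44 large subunit genes, 44 were higher in KO, 23 had an unadjusted p under 0.05 (4.51% of all genes were higher at that p), and the median log2 fold change was 0.15. Of 31 small subunit genes, 30 were higher, 16 passed, and the median was 0.17. The large subunit took 2.92% of counts in KO R1 and 2.21% in WT R3, and the small subunit 2.31% and 1.72%. Values of the 4 KO libraries lay wholly above the 4 WT libraries for 13 members, 8 large and 5 small, where 2.64% of all genes did so. By edgeR, 10 members passed the thresholds of the study (log2 fold change over 0.25 and unadjusted p under 0.05). These were 8 large and 2 small subunit genes, against 2.45% of all genes. The study itself applied the thresholds to DESeq2 results.

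The smallest p among the members belonged to Rpl36a, an X-linked gene of a large subunit protein (chrX:131120193-131122601, mm9). It had 5167, 4424, 5135 and 4463 normalized counts in KO R1 to R4 and 3978, 4054, 3606 and 4287 in WT R1 to R4. Every KO library lay above every WT library, with KO R1 and KO R3 on top. The log2 fold change was 0.27 (SE 0.0722, adjusted p = 0.4399 by edgeR).

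Rpl38, a small protein of the large subunit that is needed in the mouse embryo for patterning of the axial skeleton (chr11:114529838-114533645), had the largest log2 fold change of the set, 0.31 (SE 0.0870, adjusted p = 0.4399 by edgeR). Its normalized counts were 5173, 4100, 5339 and 4468 in KO and 3868, 3833, 3485 and 4174 in WT. KO R2 lay below WT R4, so the genotypes overlapped.

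Rps29, a zinc-binding protein of the small subunit (chr12:70258709-70260173), showed the same pattern with a log2 fold change of 0.31 (SE 0.0976). Counts were 9251, 7398, 9239 and 7321 in KO and 6527, 6665, 5976 and 7616 in WT. KO R2 and KO R4 lay between the WT libraries R2 and R4, while KO R1 and KO R3 stood clear of them.

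Rps7, a small subunit protein mutated in some patients with Diamond-Blackfan anaemia (chr12:29315712-29320818), had 18543, 15424, 17318 and 15947 normalized counts in KO and 14328, 14541, 12756 and 14832 in WT. The genotypes did not overlap, and the log2 fold change was 0.25 (SE 0.0709).

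Rpl31, which lies by the mouth of the tunnel through which new protein leaves the ribosome (chr1:39424696-39428753), had 12940, 10944, 12228 and 11262 normalized counts in KO and 9845, 10302, 8712 and 10643 in WT, again without overlap. The log2 fold change was 0.26 (SE 0.0745).

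Rps14 lines the path of the mRNA on the small subunit and is the gene lost in the human 5q- syndrome (chr18:60934164-60938200 in mouse). Its counts were 15305, 13545, 14646 and 14092 in KO and 12942, 13218, 11171 and 11994 in WT. The groups did not overlap, and here WT R4 was low together with WT R3. The log2 fold change was 0.22 (SE 0.0648).

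Rpl23a, a docking site for factors that meet the new protein at the tunnel exit (chr11:77994434-77997086), had 12782, 10472, 12155 and 10699 counts in KO and 9797, 9913, 8614 and 10339 in WT. Again the groups did not overlap, and the log2 fold change was 0.25 (SE 0.0783).

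Rps25, a small subunit protein that some viral and cellular mRNAs need for initiation without a cap (chr9:44215797-44218488), had 9992, 8466, 9836 and 8856 counts in KO and 7839, 7974, 7337 and 8498 in WT. KO R2 fell just under WT R4, and the log2 fold change was 0.23 (SE 0.0677).

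A further 3 members among the 12 with the smallest p were alike. Rpl35, at the tunnel exit (chr2:38857100-38861144), had 6132 to 7654 counts in KO and 5192 to 6223 in WT, with a log2 fold change of 0.26 (SE 0.0812) and an overlap of KO R2 with WT R4. Rpl15 (chr14:19100337-19103905) had 6329 to 7407 in KO and 5509 to 6059 in WT, with a log2 fold change of 0.20 (SE 0.0649) and no overlap. Rps23, a decoding site protein (chr13:91062727-91064329), had 10191 to 12551 in KO and 8738 to 9993 in WT, with a log2 fold change of 0.23 (SE 0.0747) and no overlap.

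**Figure D3:**
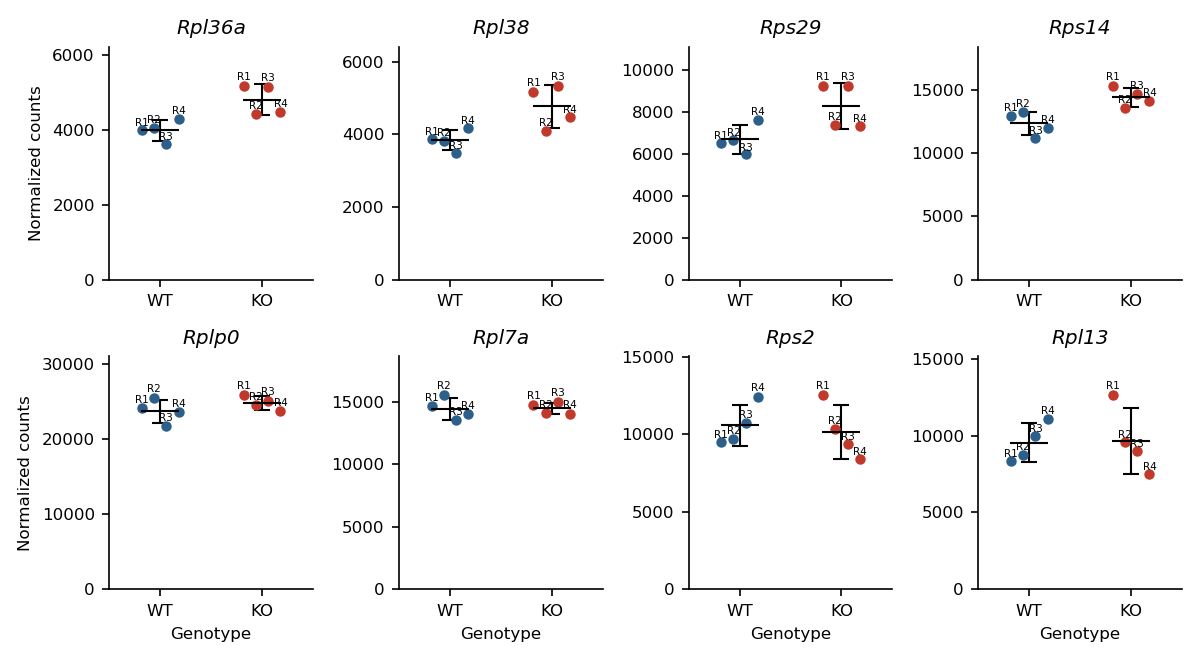
Normalized counts (y axis, from 0) of 8 ribosomal protein genes by genotype (x axis). Points are the 4 WT (blue) and 4 KO (red) libraries labelled R1 to R4, and bars are mean ± SD. The upper 4 genes have KO R1 and KO R3 on top, Rplp0 and Rpl7a differ little between genotypes, and Rps2 and Rpl13 are high in KO R1, WT R3 and WT R4.

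At the other end were Rpl7l1 (chr17:46910856-46919605), a paralog of Rpl7 that acts in ribosome assembly, and Rpl7a (chr2:26766284-26768838), a large subunit protein. Rpl7a had 14772, 14137, 15018 and 14077 normalized counts in KO and 14656, 15561, 13595 and 14019 in WT, and the highest library was WT R2. Its log2 fold change was 0.004 (SE 0.0552, 95% interval -0.10 to 0.11). Rpl7l1 had 1265 to 1367 counts in KO and 1201 to 1367 in WT, with a log2 fold change of 0.005 (SE 0.0576).

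Rps2, at the entry of the mRNA channel (chr17:24855061-24858874), was the only member with a lower mean in KO. Its counts were 12520, 10325, 9357 and 8406 in KO and 9493, 9695, 10695 and 12421 in WT, a log2 fold change of -0.06 (SE 0.120, 95% interval -0.29 to 0.18). High values were in KO R1 and WT R4, then in WT R3 and KO R2, and low values in the remaining libraries of both genotypes. Rpl13 (chr8:125626250-125629144), named here after its values were seen, had the same order at the top and bottom, with 12639, 9565, 8969 and 7532 in KO and 8330, 8768, 9967 and 11101 in WT. Its log2 fold change was 0.02 (SE 0.141). For these genes the high libraries were the 4 with fewer than 15000000 counts.

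Because library size varied within both genotypes, the comparison was repeated within size classes. Among the libraries with fewer than 15000000 counts (KO R1, KO R2, WT R3 and WT R4), 73 members were higher in KO with a median log2 fold change of 0.20, 4 had an unadjusted p under 0.05 (1.52% of all genes higher) and 30 did not overlap between genotypes (13.5%). Among the larger libraries (KO R3, KO R4, WT R1 and WT R2), which include neither KO R1 nor WT R3, 66 were higher with a median of 0.12, 25 passed that p (5.32% of all genes higher) and 46 did not overlap (18.4%). With the size class as a covariate 37 members had an unadjusted p under 0.05, against 4.46% of all genes, and the median was 0.16.

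By position in the ribosome, the stalk that recruits elongation factors showed 1 of 4 members with an unadjusted p under 0.05, where 4.51% of all genes and 52.0% of the 75 members were higher at that p. This was Rplp1 (chr9:61761091-61762345), with 14130, 11537, 13537 and 12429 counts in KO and 10855, 10884, 9522 and 12335 in WT and a log2 fold change of 0.24 (SE 0.0848). KO R2 lay below WT R4. The stalk base Rplp0 (chr5:116009476-116013736), among the most abundant members, had 23701 to 25831 in KO and 21753 to 25452 in WT, a log2 fold change of 0.06 (SE 0.0584). Rplp2, the partner of Rplp1 in the stalk (chr7:148633269-148637484), had 5343 to 6565 in KO and 5466 to 6082 in WT, a log2 fold change of 0.04 (SE 0.0727). Rpl12, which binds beside the stalk (chr2:32817079-32820016), had 8624 to 10671 in KO and 7905 to 9196 in WT, a log2 fold change of 0.15 (SE 0.0743). The difference between Rplp1 and its partners was not tested.

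Rpl5 (chr5:108329521-108338024), the 5S rRNA partner that can bind MDM2, had 14433, 12768, 14322 and 12500 counts in KO and 12135, 12879, 11369 and 12156 in WT. WT R2 exceeded KO R2 and KO R4, and the log2 fold change was 0.15 (SE 0.0640). Rpl11, its usual companion, had no row under that symbol and was not analysed here.

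Of 9 proteins around the exit tunnel, 6 had an unadjusted p under 0.05 and the median log2 fold change was 0.22, again beside 4.51% of all genes and 52.0% of all members. Of 8 proteins along the mRNA channel and the decoding site, 6 passed that p with a median of 0.19. Of 17 members mutated in Diamond-Blackfan anaemia, 11 passed with a median of 0.19. Rps19, the gene most often mutated in that anaemia (chr7:25669390-25674825), had 9074 to 10704 counts in KO and 8279 to 9202 in WT, a log2 fold change of 0.13 (SE 0.0629). These groups overlap in their genes and share the libraries.

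Rps6 is the small subunit protein phosphorylated by S6 kinases downstream of mTORC1 (chr4:86500564-86503316). It had 8479, 6995, 8065 and 6875 counts in KO and 7248, 7612, 6381 and 7064 in WT, so that KO R2 and KO R4 lay below 3 of the WT libraries. The log2 fold change was 0.10 (SE 0.0796). Rps27a (chr11:29445846-29448109), made as a fusion with ubiquitin, had 15492, 12263, 14038 and 12575 in KO and 11555, 11955, 10470 and 12171 in WT. It did not overlap, and its log2 fold change was 0.24 (SE 0.0796).

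The 4 X-linked members were Rpl36a, Rpl39, Rpl10 and Rps4x. Their values were not set against the sex of the embryo, which the column names do not give. Rpl39, a very short protein in the tunnel wall (chrX:34622515-34625397), had 4389 to 5699 counts in KO and 3697 to 4908 in WT, with a log2 fold change of 0.24 (SE 0.102). Rpl10, a late-joining large subunit protein (chrX:71516151-71518474), had 16213 to 18753 and 14520 to 16304, with 0.15 (SE 0.0643). Rps4x (chrX:99380280-99384733) had 22473 to 26277 in KO and 19739 to 23089 in WT, with a log2 fold change of 0.15 (SE 0.0669).

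The paralogs were expressed at low levels. Rps27l (chr9:66793893-66797323), a p53 target related to Rps27, had 584 to 706 counts in KO and 515 to 607 in WT, a log2 fold change of 0.18 (SE 0.0846). Rpl22l1, the paralog of Rpl22 (chr3:28704358-28706274), had 883 to 1053 in KO and 684 to 1003 in WT, a log2 fold change of 0.18 (SE 0.108). None of the 3 paralogs among the members, Rpl7l1 included, passed an unadjusted p of 0.05.

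Rps27 itself (chr3:90016593-90017573) was a member with 26, 29, 34 and 37 normalized counts in KO and 34, 29, 18 and 37 in WT, far below every other member, and its log2 fold change of 0.11 had an SE of 0.249. Rps13, in 2 rows with 1 and 0 counts, Rpl41 with 14, and the paralogs Rpl3l and Rpl39l with 6 each fell under the minimum of 80. Rps13, Rps27 and Rpl41 encode core ribosomal proteins. How the counting treated their reads was not tested, so their low counts cannot be read as low expression. Many ribosomal protein genes have processed copies elsewhere in the genome. The coding sequence matched at 95% identity or more over 80% of its length in up to 56 other places, with a median of 6 per gene. Members with no such copy (4 genes), with 1 to 9 (53) and with 10 or more (18) had median log2 fold changes of 0.17, 0.16 and 0.16.

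Per kilobase of annotated transcript, the WT level of Rps24 was highest, at 29110 normalized counts per kb, followed by Rps18 (26224), Rps4x (23287) and Rplp0 (23110). Rpl22l1 (1761), Rps27l (1206), Rpl7l1 (505) and Rps27 (85.9) were among the lowest. These levels use the median length of each gene's annotated transcripts, which is 3706 bases for Rps20 and 2606 for Rpl7l1, and are too low where long transcripts are annotated but not used.

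Shorter members showed larger fold changes. Of the 26 members with a coding length under 400 bases, 19 passed an unadjusted p of 0.05 (4.51% of all genes higher), and their median log2 fold change was 0.21. Among 27 members of 400 to under 600 bases the median was 0.16 and 13 passed, and among 22 of 600 bases or more it was 0.11 and 7 passed. Across the 75 genes Spearman's rho between coding length and log2 fold change was -0.542, a description only, since the genes share the same 8 libraries. The library medians of 1215 other genes with transcripts of at most 901 bases were also highest in KO R1 (0.06) and lowest in WT R3 (-0.07). In the other 6 libraries they were -0.03 to 0.03 and did not follow the order of the members. WT R4 had 0.031 and KO R3 0.018, where the members had -0.014 and 0.14. Of those other short genes 122, or 10.0%, were higher at an unadjusted p of 0.05, with a median log2 fold change of 0.04. With the trend over transcript length removed from each library, 31 members passed that p (4.5% of all genes), the median was 0.11, and rho with coding length was -0.313. At the thresholds of the study 1 member was then left, against 2.35% of all genes. The trend was fitted on all tested genes with a known length, the members included. Its removal can therefore take away part of the members' own difference.

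**Figure D4:**
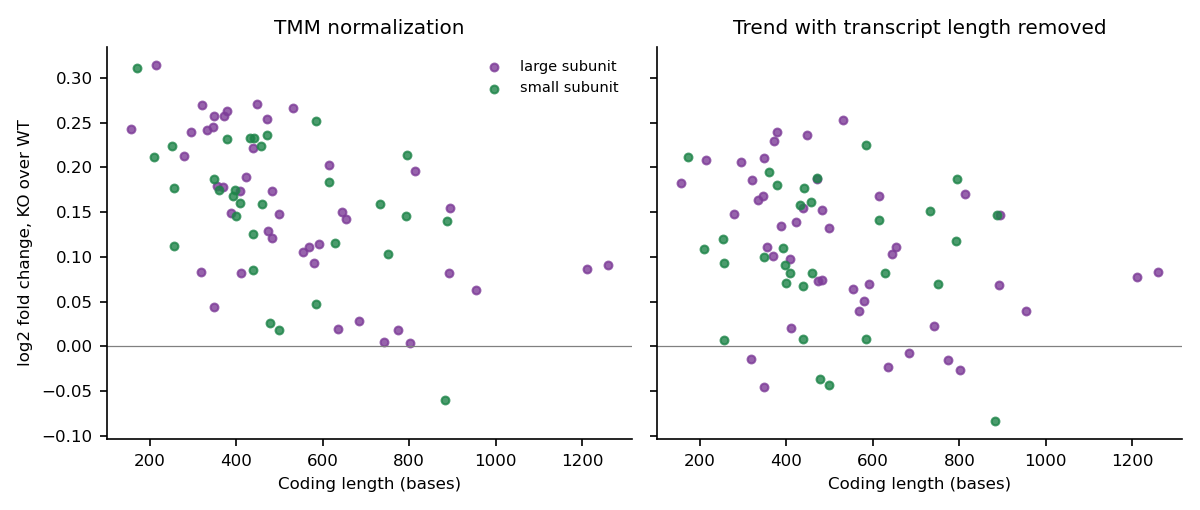
Coding length in bases (x axis) against the log2 fold change of KO over WT (y axis) for 75 ribosomal protein genes, coloured by subunit, before (left) and after (right) removal of the library trends with transcript length. The highest points lie at short coding lengths, and the cloud moves toward 0 on the right.

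Some of the promoters carry sequence features known for this gene family, each of them in a minority of the members. Windows of 60 bases from 40 before to 20 after the annotated start are shown for members with large and small fold changes, with the longest run of C and T in capitals (NCBIM37, the Ensembl name of mm9). Rpl31 (chr1:39424656-39424715, + strand) and Rps25 (chr9:44215757-44215816, + strand) are among the genes with the smallest p, Rps24 (chr14:25309900-25309959, + strand) had the highest level per kb, and Rps2 (chr17:24857015-24857074, + strand) had the lowest fold change.
Rpl31: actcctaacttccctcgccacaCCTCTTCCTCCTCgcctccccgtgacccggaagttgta
Rps25: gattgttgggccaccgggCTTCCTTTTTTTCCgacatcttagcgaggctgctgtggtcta
Rps24: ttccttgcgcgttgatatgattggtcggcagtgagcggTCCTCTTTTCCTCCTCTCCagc
Rps2: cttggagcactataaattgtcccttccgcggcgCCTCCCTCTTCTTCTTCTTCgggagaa

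A run of 8 or more C or T bases on the coding strand, overlapping the 20 bases on either side of the start, was present in 31 of 75 member promoters (41.3%), against 20.4% of 22372 promoters of the annotation. In windows from 250 bases before to 50 after the start, on both strands, CCGGAAG was found in 33.3% of members and 10.9% of all, TCTCGCGA in 16.0% and 1.35%, and TATAAA in 13.3% and 13.4%. TCTCGCGA is almost its own reverse complement, so that some promoters held overlapping matches on both strands and were counted once. The TCTCGCGA motif is shown in capitals for Rpl26 (chr11:68715027-68715064, + strand) and Rps15a (chr7:125259705-125259742, - strand).
Rpl26: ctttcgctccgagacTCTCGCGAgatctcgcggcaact
Rps15a: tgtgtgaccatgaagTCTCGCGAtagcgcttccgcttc

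Members with and without these features had close median fold changes. The median log2 fold change was 0.15 with and 0.17 without the pyrimidine run, 0.18 with and 0.15 without CCGGAAG, and 0.16 both with and without TCTCGCGA. Rps2 and Rps24 both carry long pyrimidine runs and lie at different places in the order of fold changes. A run in the annotated window is not proof of a TOP start, since the true start may differ by some bases.

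Some ribosomal protein genes have names outside the rule. Fau, which encodes the small subunit protein RPS30, had 5084 to 5861 in KO and 4795 to 5283 in WT, with a log2 fold change of 0.10 (SE 0.0591). Gnb2l1, the scaffold protein RACK1, had 18439 to 19926 in KO and 16970 to 19937 in WT, with a log2 fold change of 0.06 (SE 0.0602).

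The other genes with TOP mRNAs include elongation and initiation factors. Of 16 tested, 1 (6.25%) was higher at an unadjusted p of 0.05 and 0 were lower, a share near the 4.51% of all genes, and the median log2 fold change was 0.03. The gene was Eif3e, a subunit of initiation factor 3, with 9244, 8412, 9435 and 8676 counts in KO and 7928, 8361, 7281 and 7922 in WT. Every KO library was above every WT library, and the log2 fold change was 0.18 (SE 0.0587).

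Genes of ribosome assembly were counted by step. Of 13 genes of RNA polymerase I transcription and 22 of rRNA processing and small subunit assembly, 0 passed an unadjusted p of 0.05 in either direction by edgeR and by DESeq2. Of 19 genes of large subunit assembly and export, 5 were higher (Nip7, Eif6, Rpf2, Ebna1bp2 and Nmd3) and 0 lower, or 26.3% beside 4.51% of all genes higher, while the median of the list was 0.01. Calls in either direction were 2 without KO R1, 3 without KO R2, 1 without KO R3 and 6 without KO R4. They were 2 without WT R1, 6 without WT R2, 1 without WT R3 and 2 without WT R4. With the library size class as a covariate they were 3, and with KO R1 and WT R3 both left out 0. Nip7, a pre-rRNA processing factor, had 737 to 761 counts in KO and 604 to 711 in WT without overlap, a log2 fold change of 0.18 (SE 0.0643). Rpf2, which brings the 5S particle into the large subunit, had 1102 to 1171 and 999 to 1071, also without overlap, with 0.13 (SE 0.0515). Eif6, which keeps new large subunits from joining small ones, had 1221 to 1348 counts in KO and 1052 to 1264 in WT, with a log2 fold change of 0.17 (SE 0.0660). Ebna1bp2, another large subunit assembly factor, had 1868 to 2049 and 1591 to 1916, with 0.14 (SE 0.0635).

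Of 18 regulators of mTORC1 and TOP mRNAs and 8 candidate transcription factors of ribosomal protein genes, 0 passed an unadjusted p of 0.05 by either tool. Of 12 tested genes of the p53 and ribosomal stress response, 0 were higher and 2 lower by edgeR (3.18% of all genes lower), and 1 was lower by DESeq2. Calls in either direction by edgeR were 0 without WT R1 or WT R2, and 1 without KO R2, KO R3, KO R4 or WT R3. They were 2 without KO R1 and 3 without WT R4. Mdm2, the ligase that degrades p53, had 861, 861, 866 and 813 counts in KO and 1006, 1021, 1054 and 831 in WT, a log2 fold change of -0.21 (SE 0.0753). Its WT R4 lay within the KO range. Ccng1, a p53 target, had 587, 532, 512 and 566 in KO and 619, 620, 583 and 644 in WT, a log2 fold change of -0.17 (SE 0.0684), with KO R1 above WT R3.

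Whole-table checks were as follows. Total counts were 11027082 to 27014858 in the KO and 9643711 to 18940484 in the WT libraries, so that sampling error is small for all members but Rps27. Nuak1 had 11 to 20 normalized counts in KO and 877 to 1445 in WT, a log2 fold change of -6.49 (SE 0.223, adjusted p = 1.22e-07 by edgeR), which fits the labels of all 8 libraries. At an unadjusted p of 0.05 by edgeR, 4.51% of all genes were higher and 3.18% lower. Among markers of other cell types, 2 of 10 endothelial, 1 of 5 red blood cell, 0 of 7 microglia and 1 of 10 interneuron genes were higher. Lower at that p were 0, 0, 0 and 1. Of the interneuron genes 1 passed an adjusted p of 0.05 (0.03136 by edgeR). The 10 interneuron markers summed to 5149 to 5637 counts in KO and 4149 to 5009 in WT, although 9 of them had a negative log2 fold change. Red blood cell markers summed to 1694 to 7064 in KO, highest in KO R2, and 1596 to 3813 in WT. The 10 projection neuron markers summed to 44018 to 49494 normalized counts in KO, lowest in KO R1, and 38376 to 46013 in WT. Their median log2 fold change was 0.07, and 0.11 without KO R1. Of these 10, 3 were higher and 2 lower at that p, and of 11 progenitor genes 0 and 1 (4.51% and 3.18% of all genes). No pair of libraries of a genotype agreed within sampling noise.

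The number of members at an unadjusted p of 0.05 moved more with the libraries than with the normalization. It was 36 to 42 with other scalings, tools and filters, 31 with the trend over transcript length or over level removed, and 19 to 49 when single libraries were left out. In each of those 8 fits 19 members passed that p, among them Rpl15, Rpl23a, Rpl27a, Rpl30, Rpl31, Rpl35, Rpl36a, Rpl37a, Rpl38, Rplp1, Rps7, Rps14, Rps23, Rps25, Rps26, Rps27a and Rps29.

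**Figure D5:**
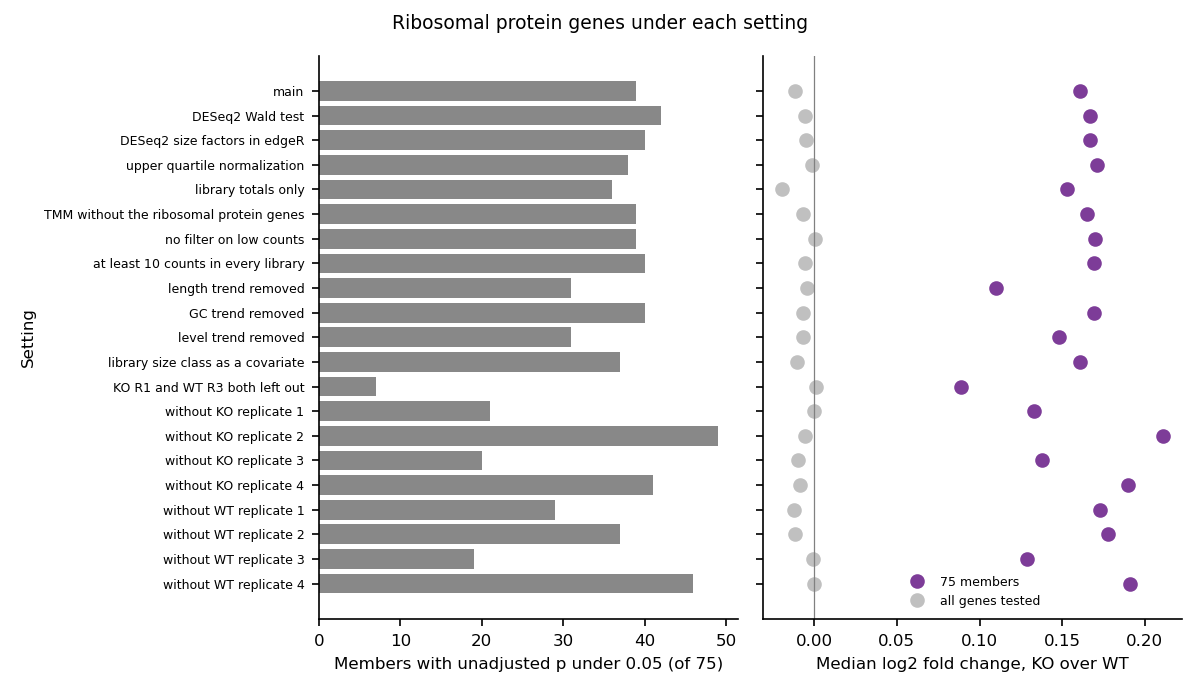
Number of the 75 ribosomal protein genes with an unadjusted p under 0.05 (left) and median log2 fold change of KO over WT (right, purple for the 75 genes and grey for all genes tested) under each setting (y axis). The count is lowest, at 7, with KO R1 and WT R3 both left out, and highest, at 49, without KO replicate 2.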

How the data were processed

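Poly-A RNA of 8 cortices was sequenced as stranded paired-end libraries (TruSeq Stranded mRNA, 100 bp reads). The authors trimmed reads with Cutadapt 1.13, aligned them to mm9 with TopHat2 2.0.13 and deposited raw counts per gene from HTSeq-count. Columns name genotype and a running number only, so libraries were grouped by genotype and embryo, sex and litter were not linked.

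All counts were fitted with edgeR 4.0.16 in R 4.3.3 (TMM, filterByExpr, 12699 genes tested, quasi-likelihood F test, Benjamini-Hochberg adjustment over all of them). SE is the log2 fold change divided by the root of F. The intervals given use a normal quantile with this SE, so they are narrower than the F test would give. Normalized counts are scaled to the mean effective library size. P-values rest on the spread between these embryos, which holds any differences of litter and sex. Embryos of the same litter were treated as independent. DESeq2 1.42.0, other scalings and filters, removal of trends with transcript length, GC content and level, and leaving out libraries were alternatives. Removal of the level trend, the library size class and the fit without KO R1 and WT R3 were chosen after seeing the data.

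The members, gene lists and tests were chosen with earlier results of these data known. Named were the 12 members with the smallest p, the 3 lowest fold changes, the stalk, 5S, paralog and X-linked groups, Rps6, Rps19 and Rps27a, members outside the name rule, up to 4 genes per list past an unadjusted p of 0.05, and Nuak1. Rpl13, Rps27, Rps13, Rpl41, Rpl3l, Rpl39l and Nmd3 were named after their values were seen. Lengths, positions, coding sequences and promoters came from NCBIM37 and GENCODE vM1. Some genes that follow these rules are not reported here.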

Additional observations from a re-analysis of the deposited data

Results flagged for a closer look

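Dixon's test at its 95% critical value was applied to 90 groups, 1 gene in 1 genotype each, and 3 groups held a library far from the other 3, where chance gives about 4.5. Rpl15 had 5509 normalized counts in WT R3, and the other WT libraries 6036 to 6059. Rpl12 had 7905 in WT R3, and the others 9040 to 9196. Mdm2 had 813 in KO R4, and the other KO libraries 861 to 866.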

How the results depend on the processing

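No paired analysis was possible because the count columns carry no litter or embryo, so the fits with litter as a block were not run. Fits with sex were not run either, since the column names do not give it. The count of members at the thresholds of the study, 10, was 1 with the length trend removed, 16 with the GC trend removed, 6 with the level trend removed, 0 with KO R1 and WT R3 both left out, and 2 (without KO R1 or without WT R3) to 25 (without KO R2) with single libraries left out. It was 3 without KO R3, 21 without KO R4 and 22 without WT R4. The count at an unadjusted p of 0.05, 39, was 7 without both libraries and 19 to 49 with single ones left out. Calls in the pathway lists were 1 without both and 3 to 12 with single ones left out, against 9 (5 without KO R1 or WT R1, 4 without KO R3, 3 without WT R3). An adjusted p of 0.05 was passed by 0 members in every fit run, and the number higher in KO, the subunit medians, the share of counts and Nuak1 kept their direction. Near 0, signs turned. The log2 fold change of Rpl7a was -0.0032 with library totals, -0.026 with the length trend removed, -0.017 with the level trend removed, -0.030 without KO R1 and WT R3, and -0.019 to 0.042 with single libraries left out. Rpl7l1 was -0.0018 with library totals and -0.028 to 0.029 with single libraries left out. Rplp2 was -0.045 with the length trend removed, -0.030 without KO R1 and WT R3, and -0.0087 to 0.096 with single ones left out. Rpl13 was -0.023, -0.11 and -0.13 to 0.12 in the same settings. Rps2 ranged from -0.17 to 0.033 and Rps27 from -0.044 to 0.22 with single libraries left out. The causes were not tested. The other 780 values of named genes kept their direction and their side of an adjusted p of 0.05. Of the counts of calls in single lists, 117 stayed within 1.5 times, 19 were higher and 24 lower. Depth limits Rps27 only.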
